A study of Mus musculus with 6 samples.

Results

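The pore-forming alpha1 subunits of the voltage-gated calcium channels were followed in RNAseq libraries of the mouse hippocampus. The rule that names them is their identity as subunit genes and uses no measured value: Cacna1a, Cacna1b, Cacna1c, Cacna1d, Cacna1e, Cacna1g, Cacna1h and Cacna1i, 8 of the 54838 genes in the deposited count table. A voltage-gated calcium channel opens when the membrane is depolarised and lets calcium into the cell, and its alpha1 subunit holds the pore, the voltage sensors and most drug binding sites. In hippocampal neurons the P/Q and N types trigger transmitter release at presynaptic terminals, the L types couple activity of the cell body and dendrites to gene transcription, the R type acts in dendrites, spines and terminals, and the T types open at small depolarisations and shape burst firing. Beta and alpha2delta subunits, encoded by other genes, carry the pore subunits of the high-voltage group (L, P/Q, N and R) to the membrane and tune their gating.

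All 6 libraries came from females aged 7 months, each library from the hippocampus of 1 mouse. There were 3 wild-type mice and 3 mice of the transgenic line FVB/NJ-Tg(ORAI1)Ibd, called Tg(ORAI1)Ibd below, which carries a coding sequence of human ORAI1 under the Thy1.2 cassette, a promoter active in neurons. ORAI1 forms the pore of the store-operated calcium channel, which opens when the endoplasmic reticulum loses calcium, so the comparison asks whether an added, overexpressed route of calcium entry goes with a change in the transcripts of the voltage-gated one. The labels give no strain for the wild-type mice, and whether they were littermates was not stated. The transgenic animals are 1 line, and what the insertion of its cassette alone does cannot be told apart from the effect of ORAI1.

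Depth and composition of the libraries bear on every value. The wild-type libraries held 37710188 to 52497799 counts and the transgenic ones 37414241 to 47027279, so that each pore subunit was counted at least 2241 times in each library and counting error was small. The counts on the mouse Orai1 gene were 7.16 to 8.08 CPM (counts per 1000000 counts of the scaled library) in wild-type and 313 to 331 CPM in transgenic mice, as the labels of all 6 libraries have it. Reads of the human cDNA reach this figure only as far as they aligned to the mouse gene. Hippocampal principal cell markers summed to 1078 to 1101 CPM in wild-type and 1008 to 1098 CPM in transgenic mice, and 0 of 10 passed the test. Choroid plexus markers did differ: all 16 were lower in the transgenic mice, summing to 2532 to 4487 CPM against 261 to 496 CPM. Wild-type mouse 2 stood apart by its striatum and septum markers, which summed to 382 CPM against 212 and 170 CPM in the other wild-type and 138 to 157 CPM in the transgenic mice. The part of either tissue in the results on the pore subunits was not tested, and the values without mouse 2 are given where they matter. In such bulk tissue, fewer cells of a type and less RNA per cell cannot be told apart.

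The members share one fold of 4 repeats, each with a pore loop that carries an acidic residue of the selectivity filter, the ring that lets calcium pass. The coding sequence around the filter glutamate of the first repeat shows how closely the 8 counted genes are related, which matters for assigning reads. It is printed below from the transcript of each gene with the longest coding sequence in GENCODE M21 (GRCm38). The windows have 54 bases in the sense of transcription, with the codon of the filter glutamate in capitals.
Cacna1a: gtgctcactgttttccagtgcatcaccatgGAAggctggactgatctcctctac
Cacna1b: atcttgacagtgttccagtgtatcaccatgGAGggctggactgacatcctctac
Cacna1c: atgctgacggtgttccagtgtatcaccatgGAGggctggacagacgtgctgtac
Cacna1d: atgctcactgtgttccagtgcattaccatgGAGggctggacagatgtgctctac
Cacna1e: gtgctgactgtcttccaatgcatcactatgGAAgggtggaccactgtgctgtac
Cacna1g: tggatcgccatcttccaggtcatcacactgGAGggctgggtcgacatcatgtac
Cacna1h: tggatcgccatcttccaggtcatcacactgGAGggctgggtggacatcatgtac
Cacna1i: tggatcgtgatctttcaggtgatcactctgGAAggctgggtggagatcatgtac
The glutamate codon stands at the same place in all 8 windows, and the letters around it fall into the 2 known families. Cacna1g and Cacna1h were identical at 53 of 54 bases, and Cacna1i matched them at 46 and 47. The 5 high-voltage genes matched each other at 37 to 48 bases, and a high-voltage and a T-type gene at 30 to 35. Read pairs from the most alike stretches could be shared between Cacna1g and Cacna1h only if they held no other difference between them. The counting kept only primary alignments with a mapping quality of at least 3, and whether this removed such pairs was not tested. Exons of the members overlapped other genes only on the opposite strand, by 435 bp for Cacna1a, 589 bp for Cacna1d and 158 bp for Cacna1h, and the counting kept the strand.

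Per unit of length, Cacna1e was the most abundant pore subunit transcript in wild-type mice and the L-type genes were among the least. Levels are given as FPKM (counted fragments relative to the exonic length of the gene and to the library total), computed from the deposited counts and lengths. Cacna1e, the R-type pore, had 20.9 ± 1.70 FPKM in wild-type mice (SD, n = 3). Cacna1h followed at 16.7 ± 1.72 FPKM, Cacna1b at 16.0 ± 0.890 FPKM and Cacna1a at 15.0 ± 0.547 FPKM. These last 3 overlapped with each other between mice, while the lowest Cacna1e value lay above the highest Cacna1h value. A step down came with Cacna1g at 9.10 ± 0.778 FPKM, apart from Cacna1a above it and from Cacna1i below it. Cacna1i at 7.22 ± 1.06 FPKM, Cacna1c at 6.58 ± 0.453 FPKM and Cacna1d at 5.89 ± 0.342 FPKM made up the lower end.

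**Figure D1:**
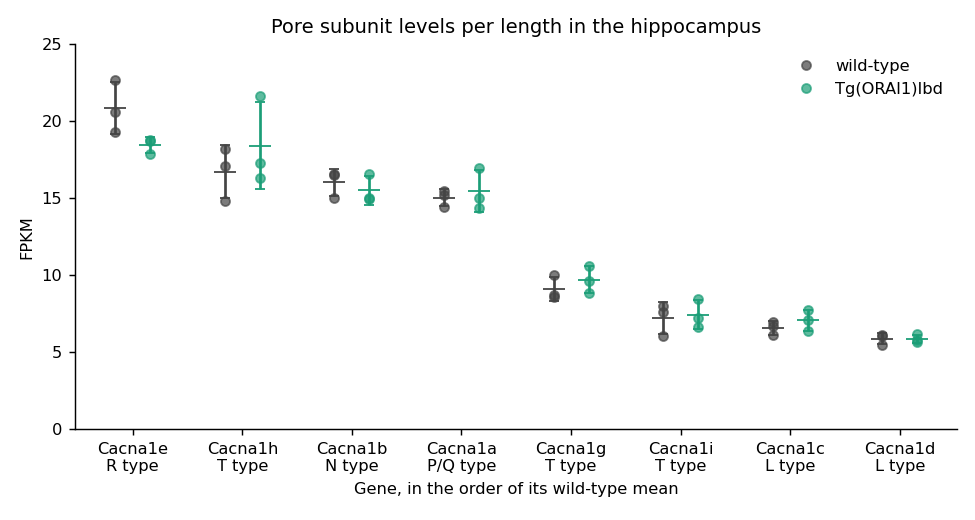
Levels per length (FPKM, vertical axis) of the 8 pore subunit genes in the order of their wild-type means, with 1 point per mouse and the mean ± SD of 3 mice beside the genotype's colour. Cacna1e leads in wild-type mice at 20.9 FPKM, Cacna1h, Cacna1b and Cacna1a form a band from 15.0 to 16.7 FPKM, and the last 4 genes lie between 5.89 and 9.10 FPKM.

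The order of the means was the same in the transgenic mice, from Cacna1e at 18.4 ± 0.513 FPKM and Cacna1h at 18.4 ± 2.83 FPKM down to Cacna1d at 5.87 ± 0.275 FPKM (n = 3). Within a library the first of 2 neighbours exceeded the next in all 6 libraries for 3 of the 7 neighbour pairs: Cacna1a over Cacna1g, Cacna1g over Cacna1i, and Cacna1c over Cacna1d. The mean log2 ratios of these pairs were 0.70, 0.36 and 0.21. No p is given for these pairs, since their order was taken from wild-type means of the same libraries. Cacna1e exceeded Cacna1h in 5 of 6 libraries, with the log2 ratio between -0.21 and 0.41 and a mean of 0.17, so the first place is not separated from the second over both genotypes.

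The order also rests on the length by which counts are divided, because the deposited length joins all exons of all transcripts and Cacna1e and Cacna1c are long on that measure, at 25228 and 21191 bp. Divided by the longest coding transcript instead, a choice made after the data were seen, Cacna1e stood at 35.3 ± 2.88 FPKM, followed by Cacna1a at 21.7 ± 0.788, Cacna1h at 19.8 ± 2.04 and Cacna1b at 16.4 ± 0.909 FPKM (n = 3). Cacna1e stayed first on either length, Cacna1a moved from the fourth to the second place, and Cacna1i became the lowest at 7.28 ± 1.06 FPKM. The remaining pore genes were close to silent: Cacna1f, the L-type pore of the retina, had 7 to 26 counts in wild-type and 3 to 9 in transgenic libraries, and Cacna1s, that of skeletal muscle, had 17 to 30 and 16 to 29.

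None of the 8 pore subunits passed the test between genotypes. With edgeR's quasi-likelihood test on the whole table, 0 of 8 had an adjusted p under 0.05, where 7.10% of the 19087 genes tested did. At an unadjusted p under 0.05 the count was 1 of 8, Cacna1e, against 27.8% of all genes. That count was 0 with GC offsets and 2 with length offsets, Cacna1c and Cacna1d in place of Cacna1e. The log2 fold changes (transgenic over wild-type) lay between -0.18 and 0.14, 5 above and 3 below 0, with a median of 0.045 beside -0.010 over all genes tested. Their median absolute size was 0.072, against 0.15 over all genes. The members lay at percentiles 82.1 to 98.8 of mean log2 CPM among the genes tested, and genes of a like level were not compared. The 95% intervals say how large a difference these libraries could still hold in a given fit. Without offsets their bounds ran from -20.7% to 34.1% over the 8 genes. With length offsets the upper bound for Cacna1h was 0.54 on the log2 scale, against 0.42 without offsets. With GC offsets the lower bound for Cacna1i was -0.35, against -0.25. DESeq2's Wald test and limma-voom also called 0 of 8.

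**Figure D2:**
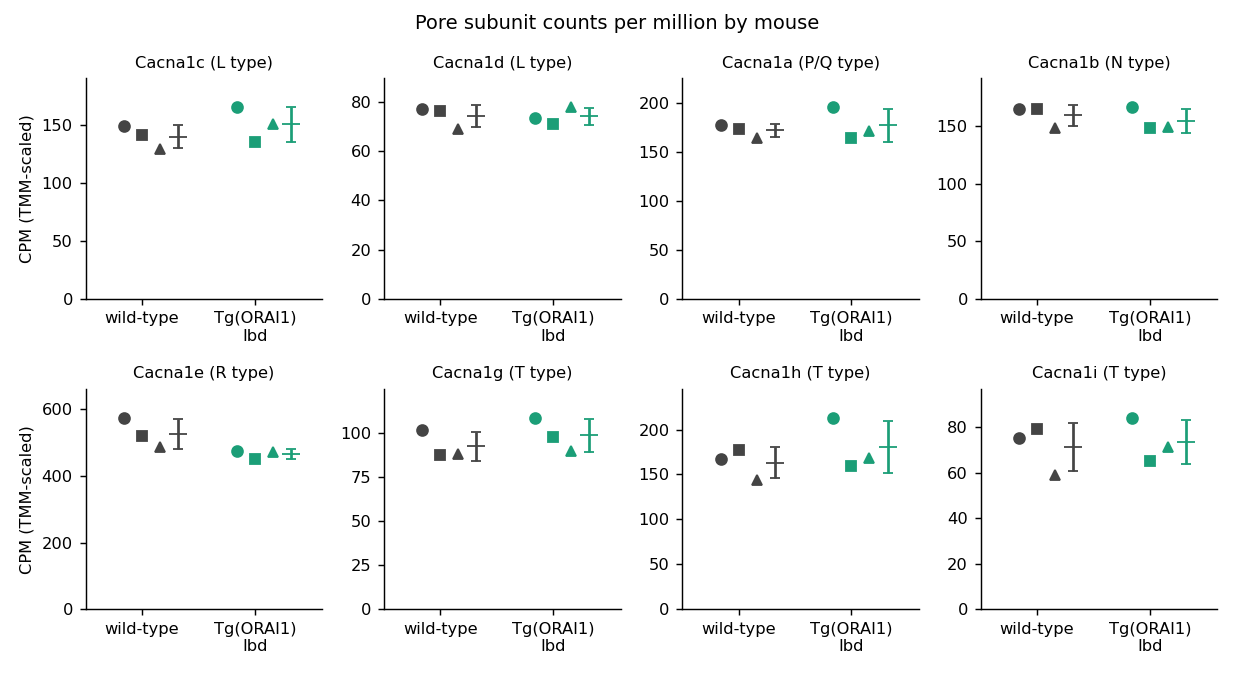
CPM scaled by TMM (vertical axes, each from 0) of each pore subunit in the 3 wild-type and 3 Tg(ORAI1)Ibd mice, with circles for mouse 1, squares for mouse 2 and triangles for mouse 3 and the mean ± SD at the side. Only for Cacna1e do all transgenic points lie below all wild-type points (449 to 476 against 485 to 574 CPM); in 7 panels the circle is the highest transgenic point.

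Cacna1e (ENSMUSG00000004110, chr1:154390731-154884501, minus strand) encodes the R-type pore, Cav2.3, which carries the calcium current left when the L, P/Q and N types are blocked. It had the most counts of the members, at percentile 98.8 of mean log2 CPM among the genes tested. The wild-type mice had 574, 519 and 485 CPM and the transgenic mice 476, 449 and 472 CPM. The transgenic values lay close together and below the lowest wild-type value, a separation that 17.9% of all genes tested showed in this direction and 34.9% in either. The log2 fold change was -0.18 (SE 0.068), a difference of -11.4% with a 95% interval from -20.7% to -1.11%. It did not pass the adjustment over all genes (edgeR, adjusted p = 0.147). Without wild-type mouse 1, the highest value, the log2 fold change was -0.093, and without wild-type mouse 3 it was -0.22. Taking the trend on gene length out of each library set it at 0.0024.

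Among the presynaptic types, Cacna1a (ENSMUSG00000034656, chr8:84388440-84640246, plus strand) encodes the P/Q-type pore Cav2.1, the main channel for fast release at most central synapses. Its wild-type values were 177, 173 and 164 CPM and its transgenic values 195, 164 and 172 CPM. Transgenic mouse 1 was above every wild-type mouse, while mice 2 and 3 fell inside the wild-type range or at its lower edge. The log2 fold change was 0.04 (SE 0.071; edgeR, adjusted p = 0.733), with a 95% interval from -8.13% to 15.6%. Cacna1b (ENSMUSG00000004113, chr2:24603887-24763152, minus strand) encodes the N-type pore Cav2.2, the target of omega-conotoxin GVIA. It had 164, 164 and 148 CPM in wild-type and 166, 148 and 149 CPM in transgenic mice. The ranges of both genotypes were nearly the same, and the log2 fold change was -0.04 (SE 0.065; edgeR, adjusted p = 0.711), with an interval from -12.6% to 7.80%.

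Both L-type genes overlapped between genotypes. Cacna1c (ENSMUSG00000051331, chr6:118587240-119196418, minus strand) encodes Cav1.2, the L-type pore that carries most of the L-type current of forebrain neurons and heart muscle. Its values were 148, 141 and 129 CPM in wild-type and 165, 135 and 151 CPM in transgenic mice. Transgenic mice 1 and 3 lay above all wild-type mice and mouse 2 lay in their midst. The log2 fold change was 0.11 (SE 0.083; edgeR, adjusted p = 0.445), with an interval from -5.83% to 23.3%. Cacna1d (ENSMUSG00000015968, chr14:30039939-30491455, minus strand) encodes Cav1.3, an L-type pore that opens at more negative potentials and takes part in pacemaking. It had 77.3, 76.5 and 69.1 CPM in wild-type and 73.6, 71.2 and 77.9 CPM in transgenic mice, and the ranges overlapped over most of their width. Its log2 fold change was -0.00095 (SE 0.060; edgeR, adjusted p = 0.995), with an interval from -9.26% to 10.1%. With length offsets the log2 fold change of Cacna1d was 0.13 (edgeR, adjusted p = 0.178), with an interval from 0.0079 to 0.26 on the log2 scale.

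The T-type genes Cacna1h and Cacna1i had the largest within-genotype SD of the 8 members on the log2 scale. Cacna1g (ENSMUSG00000020866, chr11:94408391-94474198, minus strand) encodes Cav3.1, the T-type pore known for thalamic burst firing. It had 102, 87.1 and 87.9 CPM in wild-type and 108, 97.6 and 89.8 CPM in transgenic mice. Mouse 1 was highest in each genotype and the ranges overlapped, with a log2 fold change of 0.10 (SE 0.086; edgeR, adjusted p = 0.511) and an interval from -6.98% to 22.9%. Thalamus markers, which bear on the purity of a dissection, summed to 233 to 243 CPM in wild-type and 192 to 250 CPM in transgenic mice, and 0 of 10 passed. Single markers moved in opposite ways within that sum: Prkcd had 55.0, 45.3 and 20.2 CPM and Calb2 44.2, 52.5 and 83.1 CPM in wild-type mice 1 to 3, both chosen after their values were seen.

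Cacna1h (ENSMUSG00000024112, chr17:25374285-25433783, minus strand) encodes Cav3.2, a T-type pore that is blocked by low concentrations of nickel. Its values were 167, 178 and 144 CPM in wild-type and 213, 159 and 169 CPM in transgenic mice. Transgenic mouse 1 stood above all others, and the other transgenic mice lay inside the wild-type range. The log2 fold change was 0.14 (SE 0.12; edgeR, adjusted p = 0.481), the highest of the 8, with the widest interval on its upper side, from -9.01% to 34.1%. Without transgenic mouse 1 it was 0.0058. Cacna1i (ENSMUSG00000022416, chr15:80287238-80398279, plus strand) encodes Cav3.3, a T-type pore with slow inactivation. It had 75.2, 79.1 and 59.2 CPM in wild-type and 84.1, 65.3 and 71.2 CPM in transgenic mice. Wild-type mouse 3 was the lowest and transgenic mouse 1 the highest, and the log2 fold change was 0.047 (SE 0.13; edgeR, adjusted p = 0.847), with an interval from -15.8% to 26.8%. Among the 6570 genes with a mean log2 CPM above 5, the within-genotype SD of Cacna1i (0.21 log2) lay at percentile 95.5 and that of Cacna1h (0.19) at percentile 94.5, where the median gene had 0.070.

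The same mice were often at the ends of the range for different members. Transgenic mouse 1 had the highest transgenic value for 7 of 8 members, all but Cacna1d, and transgenic mouse 2 the lowest for 7 of 8, all but Cacna1g. In wild-type mice, mouse 3 was lowest for 7 of 8, again all but Cacna1g, and mouse 1 or mouse 2 was highest. The summed FPKM of the 8 genes followed, with 102, 99.9 and 89.9 in wild-type and 106, 91.7 and 95.4 in transgenic mice. Transgenic mouse 1 also differed from its genotype by base composition. Over genes in the decile of highest GC content its log2 CPM deviated from the genotype mean by a median of 0.056, and over the decile of lowest GC content by -0.11, where mouse 2 had -0.035 and 0.045 and mouse 3 -0.022 and 0.066. The members with the most GC-rich transcripts were Cacna1h (60.3%), Cacna1i (60.1%), Cacna1g (58.1%) and Cacna1a (57.2%). Astrocyte markers split the same mice. The 6 astrocyte markers summed to 4423, 4467 and 6129 CPM in wild-type and 4233, 5442 and 5385 CPM in transgenic mice. Chosen after its values were seen, Gfap had 323, 355 and 836 CPM in wild-type and 386, 922 and 840 CPM in transgenic mice. Wild-type mouse 3 and transgenic mice 2 and 3 were thus high for these markers, and transgenic mouse 1 was near wild-type mice 1 and 2. The hippocampal markers went no common way. C1ql2 had 26.2, 24.7 and 52.3 CPM in wild-type and 33.8, 69.6 and 68.8 CPM in transgenic mice. Dsp had 59.2, 64.0 and 45.5 CPM and 72.7, 43.6 and 52.9 CPM, and Prox1 95.6, 97.7 and 93.3 CPM and 97.2, 84.3 and 109 CPM. Dsp, Fibcd1, Bok and Spink8 had wild-type mouse 3 lowest and transgenic mouse 1 highest of their genotype. The other hippocampal markers, C1ql2, Prox1, Wfs1, Zbtb20, Neurod6 and Nectin3, did not have both. The part of GC content or of these markers in the order of the mice was not tested.

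Across genotypes, the fold change of all genes varied with GC content and with length. From the lowest to the highest decile of transcript GC content, the median log2 fold change went from -0.18 to 0.14. Cacna1h, at 0.14, had the median value of its decile, and Cacna1g and Cacna1i, at 0.10 and 0.047, lay below that median. Cacna1a and Cacna1b, at 0.04 and -0.04, lay below the 0.12 and 0.089 of theirs, while Cacna1c, at 0.11, lay above the 0.073 of its own. Cacna1d and Cacna1e have nearly the same GC content, 49.2% and 49.4%, in a decile whose median was -0.0044. Cacna1d lay on that median and Cacna1e well below it. By exonic length, the median fell from 0.10 in the shortest decile to -0.066 and -0.11 in the 2 longest deciles, which held all 8 members. Cacna1e, the longest, was the only member below the median of its length decile.

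**Figure D3:**
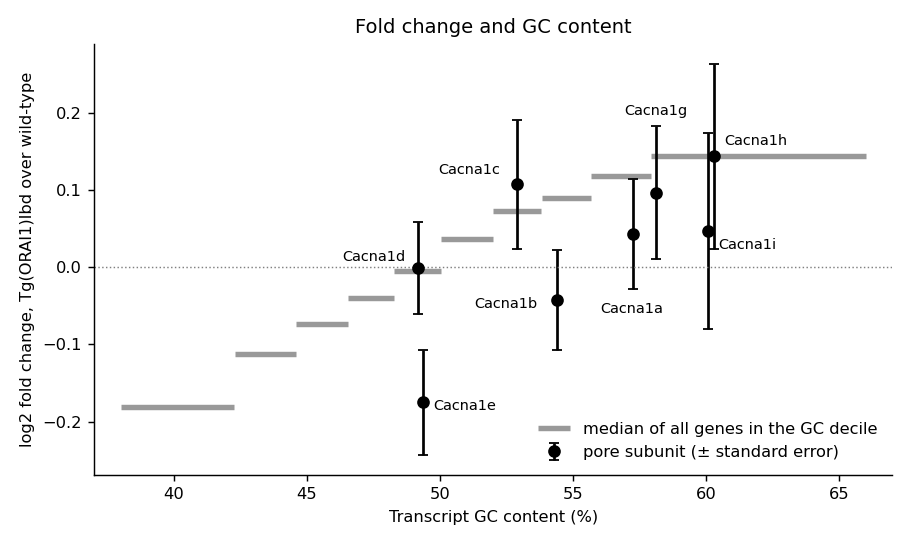
The log2 fold change (vertical axis) of each pore subunit with its standard error against the GC content of its transcripts (horizontal axis, percent), with grey bars for the median of all genes in each decile of GC content, the outermost shortened to the plotted range. The bars climb from -0.18 to 0.14, and Cacna1e, at 49.4% GC, lies at -0.18 under a bar at -0.0044.

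With each of these trends removed from the libraries, none of the 8 genes passed, but signs moved. GC offsets put 5 of 8 below 0, between -0.14 for Cacna1e and 0.071 for Cacna1c, with a lowest adjusted p of 0.306. Length offsets put all 8 above 0, between 0.0024 for Cacna1e and 0.28 for Cacna1c, with a lowest adjusted p of 0.0834, that of Cacna1c. The median over all genes was 0.019 and 0.0070 in these fits. Cacna1c and Cacna1h were the members whose log2 fold change stayed above 0 in every fit that was run. Without wild-type mouse 2 the log2 fold changes lay between -0.17 for Cacna1e and 0.23 for Cacna1h, and the lowest adjusted p was 0.331.

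**Figure D4:**
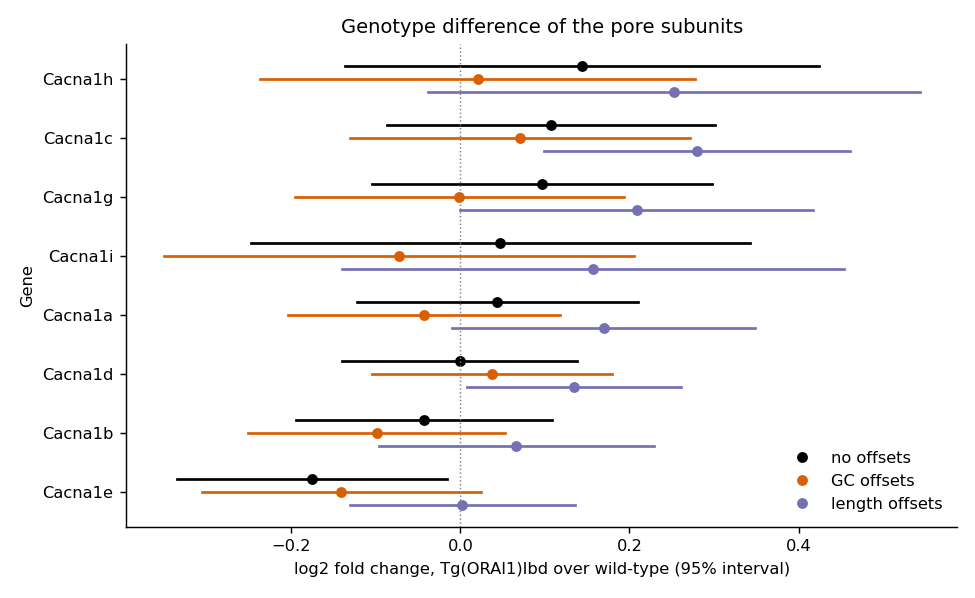
Log2 fold change, Tg(ORAI1)Ibd over wild-type (horizontal axis), of each pore subunit with its 95% interval, from the fit without offsets (black), with GC offsets (orange) and with length offsets (purple). Black points run from -0.18 for Cacna1e to 0.14 for Cacna1h, the orange points put 5 genes below 0 and the purple points put all 8 above it.

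Shares of the channel types within the summed FPKM describe the pore subunits relative to each other, and scaling between libraries cancels in them. T-type transcripts made up 33.9% ± 0.986 in wild-type and 36.2% ± 1.74 in transgenic mice (SD, n = 3). By mouse, the T share was 33.9%, 34.9% and 32.9% in wild-type and 38.2%, 35.5% and 35.0% in transgenic mice, so the lowest transgenic value lay just above the highest wild-type value. The R share, which is Cacna1e alone, was 22.1%, 20.6% and 21.5% in wild-type and 17.6%, 19.4% and 19.6% in transgenic mice. All transgenic mice had a smaller R share, with means of 21.4% ± 0.774 and 18.9% ± 1.14. The other types overlapped between genotypes: L at 12.8% ± 0.0770 and 13.2% ± 0.636, N at 16.5% ± 0.304 and 15.9% ± 0.366, and P/Q at 15.5% ± 0.514 and 15.8% ± 0.150. No test was made of these shares, which all come from the same 8 genes. They rest on the division by length: by CPM, R exceeded T. The R share was then 37.6% in wild-type and 34.0% in transgenic mice, and the T share 23.4% and 25.6%. With the GC trend removed from each library, chosen after the data were seen, R (20.8% and 19.5%) and T (34.6% and 35.5%) overlapped between genotypes, and L alone did not, at 12.6% in wild-type and 13.5% in transgenic mice.

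**Figure D5:**
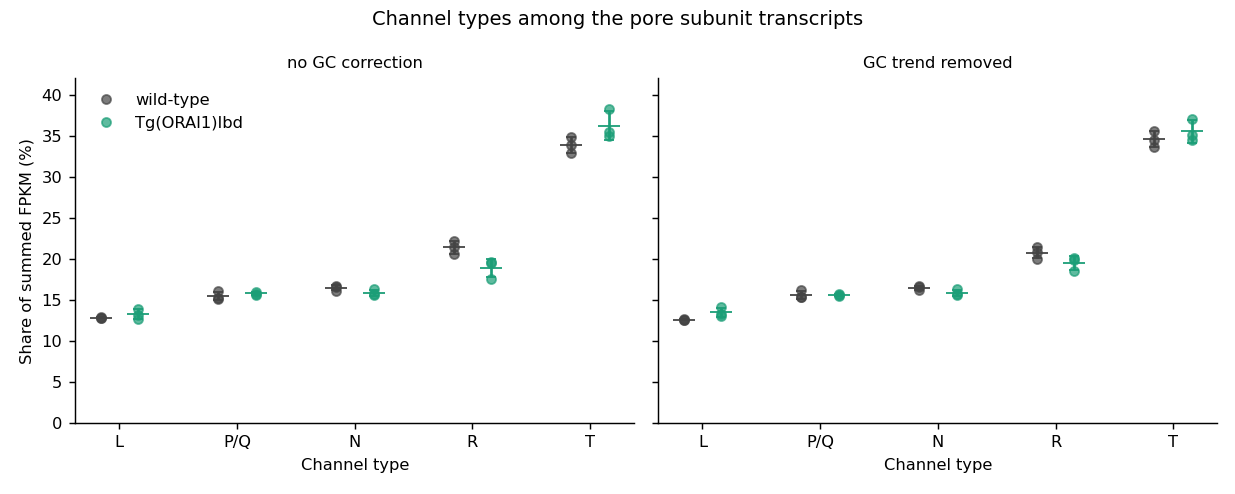
Share of each channel type in the summed FPKM of the 8 pore subunits (percent, vertical axis), 1 point per mouse with mean ± SD of 3, without a GC correction at left and with the GC trend removed at right. At left R is lower (18.9% against 21.4%) and T higher (36.2% against 33.9%) in Tg(ORAI1)Ibd without overlap; at right both overlap.

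Genes of the auxiliary subunits and partners were read from a list of 50, of which 48 were tested. In Tg(ORAI1)Ibd 4 were higher and 3 lower at an adjusted p under 0.05, beside the 7.10% of all genes in either direction. The higher genes include Orai1, the gene of the transgene, and the median log2 fold change over the 48 genes was -0.014. Of the 4 beta subunits, which bind the pore subunit from the cytoplasm, 1 rose and 1 fell. Cacnb3 had 173, 179 and 173 CPM in wild-type and 234, 203 and 219 CPM in transgenic mice, all transgenic values above all wild-type ones (log2 fold change 0.32, SE 0.058; edgeR, adjusted p = 0.0279). Cacnb4, the beta subunit mutated in lethargic mice, had 168, 145 and 138 CPM in wild-type and 94.0, 98.9 and 115 CPM in transgenic mice. No transgenic mouse reached the wild-type range, and its log2 fold change was -0.55 (SE 0.096; edgeR, adjusted p = 0.0264), the largest in size among the auxiliary subunits. Summed over the 4 genes, beta subunit counts overlapped, at 491 to 537 CPM in wild-type and 493 to 545 CPM in transgenic mice.

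Of the 4 alpha2delta subunits, extracellular proteins some of which bind gabapentin, that raise surface expression of the channel, Cacna2d2 fell and none rose. It had 52.9, 48.4 and 39.2 CPM in wild-type and 31.5, 36.5 and 31.2 CPM in transgenic mice (log2 fold change -0.50, SE 0.11; edgeR, adjusted p = 0.0450). The sum of the 4 genes, 378 to 399 CPM in wild-type and 315 to 349 CPM in transgenic mice, was lower mostly through Cacna2d1 (means of 228 and 193 CPM), which did not pass (edgeR, adjusted p = 0.139). None of 7 tested gamma subunits and related TARPs (8 listed) and none of 11 RGK GTPases, STAC adaptors and calcium sensors passed. With DESeq2's Wald test, Calm3 (adjusted p = 0.0284) and Stac3 (adjusted p = 0.0391) passed as higher. Nalcn, the sodium leak channel with the same 4-repeat fold, was the called gene among the related pores, with 139, 135 and 130 CPM in wild-type and 110, 114 and 116 CPM in transgenic mice (log2 fold change -0.25, SE 0.045; edgeR, adjusted p = 0.0279). Its transgenic values all lay below its wild-type values.

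Among 10 active zone and vesicle fusion genes 1 rose: Stx1a, the syntaxin that binds the N and P/Q types at the release site, with 77.2, 71.7 and 78.8 CPM in wild-type and 93.6, 89.2 and 94.3 CPM in transgenic mice (log2 fold change 0.28, SE 0.051; edgeR, adjusted p = 0.0279). Among 5 calcium-activated potassium channel genes Kcnmb4, the neuronal beta subunit of the BK channel, rose from 34.7, 35.5 and 35.0 CPM to 44.3, 41.3 and 40.6 CPM (log2 fold change 0.26, SE 0.051; edgeR, adjusted p = 0.0326). Each of these genes had groups that did not overlap. Of the 5 store-operated entry genes, Orai1 rose by a log2 fold change of 5.42 (edgeR, adjusted p = 3.84e-08). The other 4, Orai2, Orai3, Stim1 and Stim2, did not pass this test, while DESeq2's Wald test called Orai2 as higher (adjusted p = 0.0218).

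Apart from that of Orai1, the calls of the partner genes were lost in several other fits, while their directions stayed. With GC offsets Orai1 alone passed, and the adjusted p of the other 6 ranged from 0.0561 for Cacna2d2 to 0.200 for Nalcn. Their log2 fold changes then moved unequally: Nalcn to -0.11 and Cacnb4 to -0.35, Cacnb3 to 0.21 and Stx1a to 0.19, while Kcnmb4 was at 0.24. Cacna2d2, at -0.57, lay further from 0 than without offsets. Without wild-type mouse 1 these 6 had adjusted p from 0.109 to 0.164, and without wild-type mouse 2 from 0.103 to 0.150. Without mouse 1 the log2 fold changes were 0.33 (Cacnb3), 0.31 (Stx1a), 0.27 (Kcnmb4), -0.21 (Nalcn), -0.39 (Cacna2d2) and -0.45 (Cacnb4). Without mouse 2 they were 0.35, 0.26, 0.29, -0.23, -0.47 and -0.56 in the same order. Without transgenic mouse 3, Cacnb4 passed (adjusted p = 0.0482) and the other 5 had 0.0902 to 0.130, and without transgenic mouse 2, Cacnb3 passed (adjusted p = 0.0419) and the others had 0.0622 to 0.0918. Without wild-type mouse 3 Cacnb3 and Kcnmb4 were lost (0.0532 and 0.0602), and without transgenic mouse 1 Cacna2d2 was lost (0.0760). Length offsets ended the calls of Nalcn (log2 fold change -0.10, adjusted p = 0.187), Cacna2d2 (-0.42, 0.0692), Kcnmb4 (0.26, 0.0603) and Stx1a (0.26, 0.0511). All 7 kept their sign in each of these fits. GC content was 59.4% for Cacnb3, 58.2% for Stx1a and 52.1% for Kcnmb4, which rose, and 39.7% for Cacnb4 and 43.3% for Nalcn, which fell, while Cacna2d2, which fell, had 55.4%. Of 10 interneuron markers 3 passed as lower in the transgenic mice, Gad2, Reln and Erbb4, beside 7.10% of all genes called, with 7 of the 10 log2 fold changes below 0, and all 16 choroid plexus markers were; their part in the partner genes' differences was not tested.

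For each member, the genes with the most similar course over the 6 libraries were taken from 11191 genes with a mean log2 CPM above 3, by the root mean square difference of log2 CPM after each gene was centred. Mapk8ip3 (0.0122) was nearest to Cacna1a, and Fam114a2 (0.0132) and Tln2 (0.0142) to Cacna1b. For the L types the nearest genes were Zfp142 (0.0246) and Setd1b (0.0266) beside Cacna1c, and Srsf7 (0.0204) and Hdac2 (0.0230) beside Cacna1d. Cacna1e lay nearest to Pcnx (0.0170) and Nkrf (0.0209). Of the T types, Cacna1h lay nearest to P3h3 (0.0230) and Thbs3 (0.0297), Cacna1g to Osbpl10 (0.0345) and Pard6a (0.0347), and Cacna1i to Dcbld1 (0.0450) and Eftud2 (0.0534). Between members the differences were 0.0502 for Cacna1a with Cacna1c, 0.0531 for Cacna1a with Cacna1b and 0.0667 for Cacna1h with Cacna1i, and the nearest member lay at 0.0731 from Cacna1d and 0.0885 from Cacna1e. No member was among the 2 nearest genes of another, and with so many genes compared over 6 libraries such nearness is a description alone.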

How the data were processed

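Total RNA of 1 hippocampus per mouse was sequenced in 6 libraries. The authors trimmed reads with Trimmomatic, aligned them to mm10 with STAR and deposited raw featureCounts (1.5.0-p1) counts of fragments per gene, with exonic lengths, on Ensembl 95. Per the file header, pairs were counted with strand setting 2, primary alignments and a mapping quality of at least 3. Depth was 37414241 to 52497799 counts. Genes passing filterByExpr (minimum count 10) were scaled by TMM and compared by edgeR's quasi-likelihood test, 3 against 3 libraries without covariates, with Benjamini-Hochberg adjustment over 19087 genes; standard errors are the fold change over the root of F. An exact permutation test of 3 against 3 cannot fall below 0.1. A planned sign-flip test of neighbouring levels is not quoted, since the same libraries set their order. FPKM and GC content (GENCODE M21, 54723 of 54838 genes matched) were computed here. Replicate libraries are separate mice. Tried in place of these choices were other scalings, DESeq2's Wald test, limma-voom, other filters, GC and length offsets (loess, span 0.5), a replicate block and leaving out each library. Named genes were the members, Cacna1f, Cacna1s, up to 4 called genes per partner list, and the 2 genes nearest each member (1 of these is not reported here); marker genes beyond these are named because few passed, after their values were seen. Members and lists were chosen with earlier results of these data known. NOISeq, used in the study, was not repeated, since raw counts were tested. On simulated data, 81.5% of 200 genes with a log2 fold change of 1 were recovered among 18847 genes and 5.78% of 173 calls were false. The simulated counts held no trend on GC content or length, and their changes were larger than those of the members. These rates therefore do not carry over to the libraries. R 4.3.3, edgeR 4.0.16, limma 3.58.1, DESeq2 1.42.0 and Python 3.11.15 were used.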

Additional observations from a re-analysis of the deposited data

How the results depend on the processing

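Over 17 alternatives, 136 log2 fold changes of the 8 pore subunits were computed: 109 kept their sign, 27 changed it, and 0 passed the adjusted threshold (lowest adjusted p 0.0649). At an unadjusted p under 0.05, 4 passed with length offsets and replicate block (Cacna1a, Cacna1c, Cacna1g and Cacna1h). The sign changed with GC offsets for Cacna1a (-0.043), Cacna1d (0.038), Cacna1g (-0.0012) and Cacna1i (-0.073), and with GC offsets and replicate block for the same genes (-0.046, 0.038, -0.00033 and -0.068). It changed with length offsets for Cacna1b (0.066), Cacna1d (0.13) and Cacna1e (0.0024), and with length offsets and replicate block likewise (0.064, 0.13 and 0.0032). For Cacna1d it also changed with DESeq2 size factors (0.0070), DESeq2's Wald test (0.0068), no filter (0.0093) and at least 10 counts in every library (0.012). Leaving out 1 library gave -0.034 to 0.12 for Cacna1a, -0.099 to 0.011 for Cacna1b, -0.045 to 0.052 for Cacna1d and -0.062 to 0.15 for Cacna1i. The other 4 kept their sign, at 0.035 to 0.20 for Cacna1c, -0.22 to -0.093 for Cacna1e, 0.023 to 0.19 for Cacna1g and 0.0058 to 0.25 for Cacna1h.

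Counts over all genes moved more. From 591 higher and 764 lower genes, they became 1055 and 1175 with DESeq2's Wald test, 263 and 475 with the replicate block, 153 and 248 with GC offsets, 151 and 315 with GC offsets and block, 241 and 355 with length offsets and block, 395 and 376 with length offsets, and 11 to 466 higher and 66 to 683 lower with 1 library left out, fewest without wild-type mouse 1. Partner genes (4 higher, 3 lower) became 7 higher with DESeq2's Wald test, which added Orai2, Calm3 and Stac3. They became 1 and 0 with GC offsets, 2 and 1 with length offsets and 1 and 1 with GC offsets and block. With 1 library left out they were 1 to 4 higher and 0 to 3 lower. The labels do not say what equal replicate numbers share, and the correlations do not show a pairing: not every mouse correlated best with its own number, and same-number deviations correlated at a mean of 0.143 (3 pairs, -0.357 to 0.399), against -0.0918 (-0.588 to 0.536) over 6 pairs of different numbers. With the replicate block, Nalcn (adjusted p 0.0541) and Kcnmb4 (0.0626) did not pass, at log2 fold changes of -0.25 and 0.26, as without the block. The cause of these shifts was not tested.

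Ranks in wild-type by CPM were 2 for Cacna1a, 3 for Cacna1h, 4 for Cacna1b, 5 for Cacna1c, 6 for Cacna1g, 7 for Cacna1d and 8 for Cacna1i, and by the longest coding transcript 2, 3, 4, 6, 5, 7 and 8 in the same order. Type shares by CPM were, in wild-type and transgenic mice, 15.3% and 16.3% (L), 11.4% and 11.2% (N), 12.3% and 12.9% (P/Q), 37.6% and 34.0% (R) and 23.4% and 25.6% (T). By the longest coding transcript they were 14.7% and 15.3% (L), 12.5% and 12.2% (N), 16.6% and 17.1% (P/Q), 27.0% and 24.0% (R) and 29.2% and 31.5% (T). With the GC trend removed, L was 12.6% in wild-type and P/Q 15.6% in transgenic mice. With 3 mice per genotype, spread between mice and not counting limits the pore subunit values.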
